A study of Mus musculus with 6 samples.

Results

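The mRNAs described here are 9 genes of hepatic glucose output, glycogen storage and the insulin response, chosen by symbol from the 40481 genes in the table of all pools: Pck1, G6pc, Fbp1, Pcx, Slc2a2, Gys2, Pygl, Irs1 and Irs2. They were measured by RNA-Seq in liver RNA of C57BL/6 mice that carry floxed Mttp (Mttp f/f) and a Villin Cre ER(T2) transgene, in which tamoxifen induces deletion of Mttp, the microsomal triglyceride transfer protein gene needed for chylomicron assembly. All mice carried the floxed gene and the transgene. *Mttp-IKO* mice received tamoxifen at 50 μg/g body weight/day for 5 days and control mice, which the labels call wild type, were littermates given vehicle. Tamoxifen treatment and *Mttp* deletion therefore cannot be told apart. From 3 weeks after injection, both groups ate a methionine/choline-deficient (MCD) diet for 3 weeks. The article gives an age of 12 to 16 weeks and describes male mice for this experiment. For these samples 4 h of fasting before the livers were taken is recorded, while the article gives a range of fasting times that starts at 4 h. Each genotype was sequenced as 3 pools, with RNA of 3 to 4 mice in a pool, and pools vary less than single mice would. The Villin promoter drives Cre in the intestinal epithelium, so liver *Mttp* does not check the deletion (150 ± 52.2 and 145 ± 15.95 CPM, counts scaled to library size, in control and *Mttp-IKO* pools; SD, n = 3).

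In fasting, the liver makes glucose from lactate, amino acids and glycerol by gluconeogenesis and releases it from glycogen. Pyruvate carboxylase (Pcx) and phosphoenolpyruvate carboxykinase (Pck1) carry carbon from pyruvate to phosphoenolpyruvate, fructose bisphosphatase (Fbp1) reverses a committed step of glycolysis, and glucose-6-phosphatase (G6pc) frees glucose, which crosses the membrane through GLUT2 (Slc2a2). Liver glycogen synthase (Gys2) and phosphorylase (Pygl) build and break down glycogen, and the insulin receptor substrates Irs1 and Irs2 pass the insulin signal from the receptor to the kinases that restrain glucose output. Glucagon and cAMP raise transcription of *Pck1* and *G6pc* in liver and insulin lowers it.

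The promoters of *Pck1* and *G6pc* are shown because these genes are textbook targets of both hormones and their mRNA levels were compared within each pool. Each sequence is the gene strand from 250 bases before to 50 bases after the RefSeq start on GRCm38.p6, at chr2:173152823-173153122 (+) for *Pck1* and chr11:101367466-101367765 (+) for *G6pc*, and capitals mark a match to TTACGTCA, a variant of the cAMP response element.
Pck1: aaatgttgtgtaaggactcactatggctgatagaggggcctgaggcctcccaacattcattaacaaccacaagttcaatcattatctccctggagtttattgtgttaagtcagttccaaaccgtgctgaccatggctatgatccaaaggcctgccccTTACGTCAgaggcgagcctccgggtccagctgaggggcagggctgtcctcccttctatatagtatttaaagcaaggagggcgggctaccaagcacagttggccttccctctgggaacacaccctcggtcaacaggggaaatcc
G6pc: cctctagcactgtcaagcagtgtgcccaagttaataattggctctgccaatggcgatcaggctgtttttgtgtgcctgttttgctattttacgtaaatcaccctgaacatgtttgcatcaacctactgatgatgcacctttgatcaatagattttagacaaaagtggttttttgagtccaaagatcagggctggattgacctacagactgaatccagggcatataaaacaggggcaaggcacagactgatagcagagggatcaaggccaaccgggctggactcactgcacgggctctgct
The *Pck1* match began 93 bases before the start, and TTACGTCA stood on either strand in 0.499% of 32851 promoter windows of the same length. The shorter TGACG, which overlaps that match on the other strand, was found in the windows of *Pck1*, *Irs1* and *Pygl* and in 20.8% of all windows. TGACGTCA (1.79% of all windows), GTAAACA (3.65%) and ATAAACA (4.6%) were in none of the 9 windows that RefSeq gave for 8 of the 9 genes. Only these exact words were searched. The *G6pc* window matched none of them, but it can still hold other sites that respond to these hormones.

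Pools held 25271585 to 36238734 reads on genes, and a gene with 0 reads could still be present at 3 reads, or 0.0828 to 0.119 CPM (counting error only). Of 17287 genes tested, 694 (4.01%) had an adjusted p under 0.05 in edgeR's quasi-likelihood test, 159 (0.920%) of them higher in *Mttp-IKO* pools and 535 (3.09%) lower. The count was 24 without control pool 1, 21 without control pool 3, 55 without *Mttp-IKO* pool 1 and 0 without *Mttp-IKO* pool 2, where 3221 genes had an unadjusted p under 0.05. Pools of the genotypes did not overlap for 5366 genes (31.0%), and the median log2 fold change of all genes was 0.0057. *Mttp-IKO* pool 3 stood apart: small RNAs took 0.289% of its reads against 1.92 to 3.51% in the other pools, and protein-coding genes of 300 to 1000 nt took 1.84% of its protein-coding reads against 3.98 to 4.28%. Control pool 2 and, at a lower level, control pool 1 held striated muscle mRNAs. The 5 markers summed to 559 and 68.1 CPM there, against 2.61 to 3.31 CPM in the other pools. The 8 hepatocyte markers, all detected, summed to 53870 to 87443 CPM in control pools and 105143 to 161387 CPM in *Mttp-IKO* pools, with none passing the test. Most of each sum was *Alb*, at 40131 to 69006 CPM in control and 84786 to 132236 CPM in *Mttp-IKO* pools. The median log2 fold change of the 8 was 0.66, and *Ttr* went the other way at -0.55. Every stellate cell marker had a fold change below 0, and 5 of 8 passed (851 to 1516 against 457 to 510 CPM). Every macrophage marker was below 0 too, and 2 of 7 passed (685 to 1585 against 351 to 460 CPM). Of 4 resident Kupffer cell markers (164 to 190 against 144 to 395 CPM), *Timd4* alone passed, as higher, and the median log2 fold change was 0.64. None of the endothelial, cholangiocyte, T cell, B cell, neutrophil or small intestine markers passed. In such bulk RNA, fewer cells of a type and less RNA per cell cannot be told apart, and the part of these shifts in the values below was not tested. Kidney cortex, adipocyte and islet markers summed to at most 4.30 CPM in any pool.

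None of the 9 genes passed the adjusted threshold, against 4.01% of all genes. *Fbp1* and *Irs1* had an unadjusted p under 0.05 in edgeR, 2 of the 9 against 23.0% of all genes. DESeq2 called *Fbp1* alone, and limma-voom called none of them. The fold change was above 0 for 8 genes, against 50.5% of all genes, and below 0 for *Fbp1*. The median over the 9 was 0.45 on the log2 scale. Without *Mttp-IKO* pool 3, 6 of the 9 were above 0 and 3 below. Pools of the genotypes did not overlap for 3 of the 9 genes, *Fbp1*, *Pcx* and *Irs1*, against 31.0% of all genes, or for 2 with scaling by total counts or with the trend in gene length removed, where the pools of *Irs1* overlapped. Levels below are CPM scaled by TMM (trimmed mean of M values), each list of pools runs from pool 1 to pool 3, means are given with SD (n = 3 pools), and p-values are edgeR's, adjusted over all genes tested.

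*Fbp1* (ENSMUSG00000069805, GRCm38 chromosome 13, 62864753 to 62888282, minus strand) was at 596, 755 and 829 CPM in controls, and at 375, 508 and 424 CPM in knockouts (*Mttp-IKO*). Every *Mttp-IKO* pool was below every control pool, and the mean was 40.0% lower (726 ± 119 against 436 ± 67.1 CPM). The log2 fold change was -0.74 (standard error 0.208, 95% interval -1.22 to -0.26), with an adjusted p of 0.0900. The adjusted p was 0.0118 in DESeq2 and 0.0339 with scaling by total counts, and it lay between 0.0892 and 0.305 over fits that each left out 1 pool. *Fbp2*, the muscle paralog, was at most 1.07 CPM in any pool.

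*Pck1* (ENSMUSG00000027513, chromosome 2, 173153048 to 173159273, plus strand) was at 2313, 3241 and 3091 CPM in controls, and at 2264, 3091 and 3574 CPM in knockouts. The ranges overlapped almost wholly, with pool 1 the lowest in both genotypes. Means were 2881 ± 498 and 2976 ± 662 CPM (adjusted p = 0.933, log2 fold change 0.047 with a standard error of 0.253), and the 95% interval of -0.54 to 0.63 leaves room for a change in either direction. The sign turned with scaling by total counts and when control pool 1 or *Mttp-IKO* pool 3 was left out.

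*G6pc* (ENSMUSG00000078650, chromosome 11, 101367561 to 101377903, plus strand) was at 116, 181 and 285 CPM in controls, and at 153, 275 and 484 CPM in knockouts. Both genotypes spanned a wide range, with coefficients of variation of 43.9% and 55.1%, and overlapped. Means were 194 ± 85.2 and 304 ± 168 CPM (adjusted p = 0.426, log2 fold change 0.65 with a standard error of 0.450). With 1 pool left out at a time, the log2 fold change ran from 0.14 without *Mttp-IKO* pool 3, the highest, to 0.999 without control pool 3. Per kilobase, the ratio of *G6pc* to *Pck1* was 0.0715, 0.0792 and 0.131 in control pools and 0.0957, 0.127 and 0.192 in *Mttp-IKO* pools. The log2 ratio was 0.55 higher in *Mttp-IKO* pools (two-sided exact permutation p = 0.3, or 0.9 adjusted over the 3 ratios tested, where 0.1 is the smallest p that 3 against 3 pools allow).

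*Pcx* (ENSMUSG00000024892, chromosome 19, 4510472 to 4621752, plus strand) varied least among control pools, at 588, 647 and 603 CPM, and was at 703, 819.7 and 821 CPM in *Mttp-IKO* pools. All *Mttp-IKO* pools were above all control pools, yet the difference did not pass the test (612 ± 30.6 against 781 ± 68.05 CPM, adjusted p = 0.268, log2 fold change 0.35 with a standard error of 0.172).

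*Slc2a2* (ENSMUSG00000027690, chromosome 3, 28697903 to 28728356, plus strand), the transporter of the hepatocyte membrane, was at 187, 334 and 263 CPM in controls, and at 336, 432 and 300.5 CPM in knockouts. The highest control pool lay within the range of the *Mttp-IKO* pools. Means were 261 ± 73.9 and 356 ± 67.9 CPM (adjusted p = 0.329, log2 fold change 0.45 with a standard error of 0.252). With 1 pool left out at a time, the log2 fold change ran from 0.23 without control pool 1 to 0.65 without control pool 2.

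**Figure D1:**
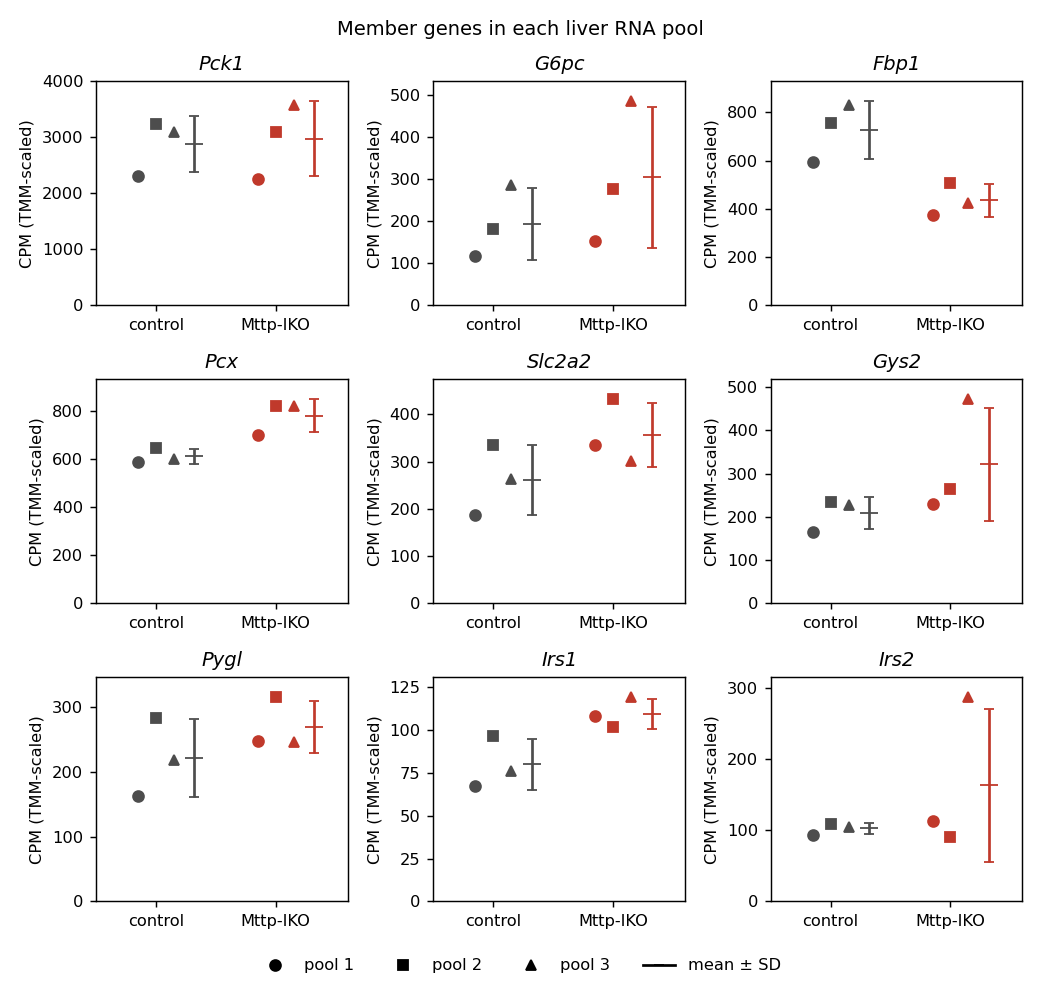
CPM (TMM-scaled, linear axes from 0) of the 9 genes in each control (grey) and *Mttp-IKO* (red) pool, with symbols for pool numbers and bars for mean ± SD (n = 3). *Fbp1*, *Pcx* and *Irs1* show no overlap between genotypes, and *Mttp-IKO* pool 3 is highest for *G6pc*, *Gys2* and *Irs2*.

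*Gys2* (ENSMUSG00000030244, chromosome 6, 142422613 to 142473109, minus strand) was at 166, 234 and 226 CPM in controls, and at 229, 265 and 471 CPM in knockouts. *Mttp-IKO* pool 3 was far above the others, and pool 1 lay within the control range. Means were 209 ± 37.5 and 322 ± 131 CPM (adjusted p = 0.252, log2 fold change 0.62 with a standard error of 0.295), and the log2 fold change was 0.25 without *Mttp-IKO* pool 3 and 0.82 without *Mttp-IKO* pool 1.

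*Pygl* (ENSMUSG00000021069, chromosome 12, 70190811 to 70231488, minus strand) was at 163, 283 and 218 CPM in controls, and at 247, 315 and 245 CPM in knockouts. The genotypes overlapped, and pool 2 was the highest of each (221 ± 59.97 and 269 ± 39.6 CPM, adjusted p = 0.502, log2 fold change 0.28 with a standard error of 0.234). Without control pool 1 the log2 fold change was 0.085, and without control pool 2 it was 0.48. The ratio of *Pygl* to *Gys2* per kilobase, breakdown against synthesis, was 0.682, 0.838 and 0.668 in control pools and 0.749, 0.825 and 0.362 in *Mttp-IKO* pools. It was low in *Mttp-IKO* pool 3 alone, and the log2 ratio differed by -0.26 (two-sided exact permutation p = 0.8, adjusted p = 1) or by 0.12 without that pool.

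*Irs1* (ENSMUSG00000055980, chromosome 1, 82233101 to 82291416, minus strand) was at 67.3, 96.4 and 76.1 CPM in controls, and at 108, 102 and 119 CPM in knockouts. The lowest *Mttp-IKO* pool was just above the highest control pool. Means were 79.9 ± 14.9 and 109.6 ± 8.81 CPM (adjusted p = 0.181, log2 fold change 0.46 with a standard error of 0.178 and a 95% interval of 0.04 to 0.87). Exons of the opposite-strand gene *Gm9747* cover 30.9% of its length. Only unambiguous reads were counted, so if strand was not used, reads there were left out and *Irs1* is undercounted. *Gm9747* itself had 0 reads in every pool.

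*Irs2* (ENSMUSG00000038894, chromosome 8, 10986980 to 11008458, minus strand), which insulin represses in liver, was at 94.1, 109 and 105 CPM in controls, and at 113, 90.1 and 287 CPM in knockouts. *Mttp-IKO* pool 3 was far above every other pool, at 2.83 times the mean of the other *Mttp-IKO* pools. Means were 103 ± 7.59 and 163 ± 108 CPM (adjusted p = 0.355, log2 fold change 0.67 with a standard error of 0.400). Without that pool the log2 fold change was -0.013, with an adjusted p of 0.962, and without *Mttp-IKO* pool 2 it was 0.96. The ratio of *Irs2* to *Irs1* per kilobase was 3.18, 2.56 and 3.15 in control pools and 2.38, 2.01 and 5.48 in *Mttp-IKO* pools, a log2 difference of 0.013 (two-sided exact permutation p = 1, adjusted p = 1) or -0.43 without *Mttp-IKO* pool 3.

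**Figure D2:**
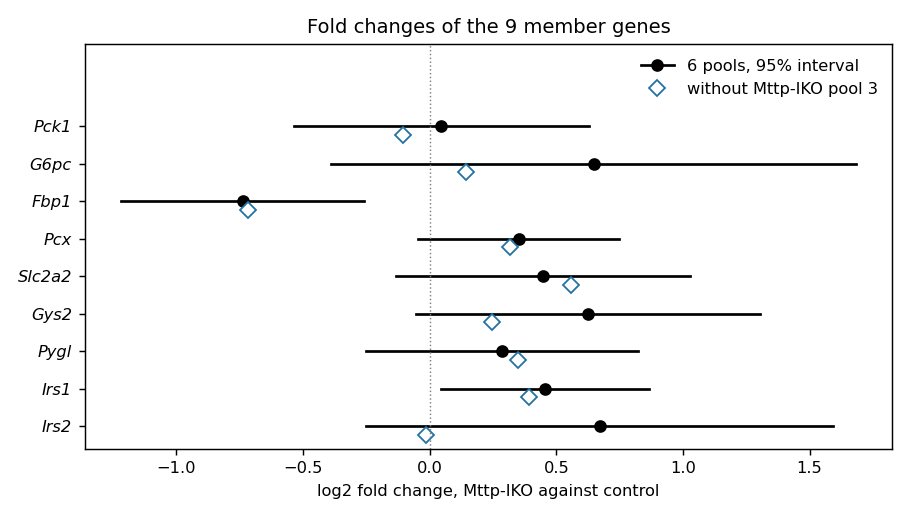
Log2 fold change of each of the 9 genes in *Mttp-IKO* against control pools, with black points and lines for edgeR's estimate and 95% interval over 6 pools and blue diamonds for the estimate without *Mttp-IKO* pool 3. The intervals of *Fbp1* (-1.22 to -0.26) and *Irs1* (0.04 to 0.87) leave out 0, which matches an unadjusted p under 0.05 in edgeR. Of all genes, 23.0% had such a p. The diamonds of *G6pc* (0.14), *Gys2* (0.25) and *Irs2* (-0.013) lie well below their points.

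Per kilobase of gene length, in RPKM, the 9 mRNAs stood in the same order in both genotypes and covered about 2 orders of magnitude. *Pck1* led with 840 ± 145 RPKM in control and 868 ± 193 RPKM in *Mttp-IKO* pools, and *Irs1* was last with 8.74 ± 1.63 and 12.0 ± 0.963 RPKM. *Fbp1* followed *Pck1* at 427 and 256 RPKM, and *Pcx* came next at 143 and 183 RPKM. In control pools, the neighbours that overlapped were *Slc2a2* and *G6pc*, *G6pc* and *Gys2*, and *Gys2* and *Pygl* (94.9 to 57.8 RPKM). In *Mttp-IKO* pools the overlaps were between *Slc2a2* and *G6pc*, *G6pc* and *Gys2*, and *Pygl* and *Irs2*. *Irs2* was above *Irs1* in every pool, at 25.5 ± 1.89 and 40.6 ± 26.8 RPKM. Opposite-strand genes overlap 30.9% of the length of *Irs1* and 4.03% of that of *Irs2*. If strand was not used in counting, reads lost there would lower *Irs1* and could raise the ratio of *Irs2* to *Irs1*.

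**Figure D3:**
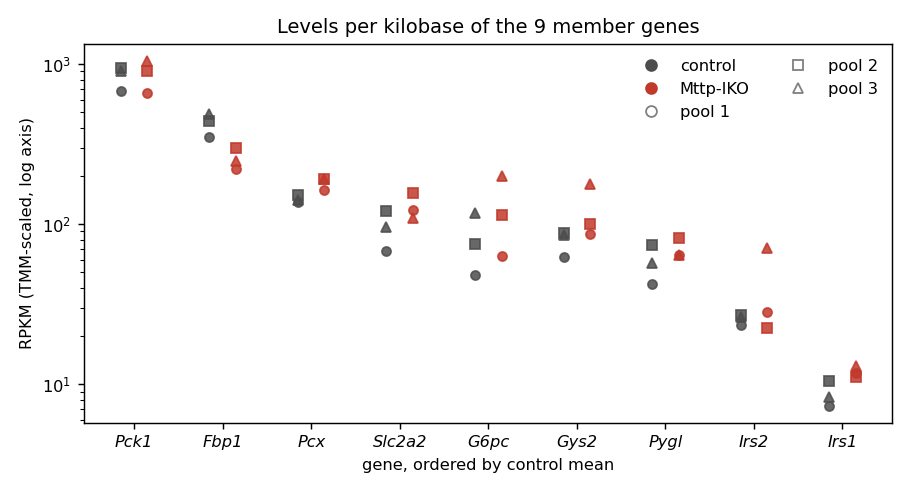
RPKM (TMM-scaled, log axis) of the 9 genes in each pool, ordered by the control mean, in grey for control and red for *Mttp-IKO*, with symbols for pool numbers. Levels run from 840 RPKM for *Pck1* to 8.74 RPKM for *Irs1* in control means, and the 4 genes between 94.9 and 57.8 RPKM overlap those next to them within that range.

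The other genes of these pathways were read as 7 lists of 115 different genes, all tested. Of these, 6 passed, 3 higher and 3 lower, against 0.920% and 3.09% of all genes, and the median log2 fold change was 0.13. In edgeR 33 of the 115 had an unadjusted p under 0.05, against 23.0% of all genes. These were 8 of 18 glycolysis genes, 8 of 22 glycogen genes, 3 of 9 transporters and 7 of 15 insulin and fasting targets. The others were 2 of 20 gluconeogenic enzymes, 4 of 14 regulators and 3 of 23 insulin signaling genes, and some genes are in more than 1 list. No gene passed when control pool 1, control pool 3 or *Mttp-IKO* pool 2 was left out, 2 passed without *Mttp-IKO* pool 1, and 11 passed without *Mttp-IKO* pool 3, 4 of which were among the 6.

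The 2 glycogen genes that passed encode targeting subunits that bring protein phosphatase 1 to glycogen, where it activates glycogen synthase. No enzyme of the list passed, and with 3 pools per genotype that does not show that the enzymes were unchanged. *Ppp1r3b*, the main subunit of liver, was at 74.8, 72.6 and 66.1 CPM in controls, and at 180.5, 256 and 241 CPM in knockouts, 3.17 times as high (adjusted p = 0.01315, log2 fold change 1.67 with a standard error of 0.186). *Ppp1r3c* was at 3.57, 12.4 and 3.15 CPM in controls, and at 29.5, 50.7 and 28.1 CPM in knockouts (adjusted p = 0.0462, log2 fold change 2.501 with a standard error of 0.537). The higher value of *Ppp1r3c* in control pool 2 stood beside the muscle mRNAs of that pool, and without it the log2 fold change was 3.40. Without *Mttp-IKO* pool 3 the adjusted p of *Ppp1r3c* was 0.0524. These were 2 of 22 glycogen genes, where 0.920% of all genes passed as higher. None passed as lower, against 3.09% of all genes. Of the 22, 10 had fold changes below 0, and the median of the list was 0.05. *Pygm*, muscle phosphorylase, was at 35.7 CPM in control pool 2 and at most 5.41 CPM elsewhere. *Pygb*, brain phosphorylase, was at 31.1 ± 12.99 and 14.5 ± 3.51 CPM (adjusted p = 0.104), and *Ugp2*, which makes UDP-glucose, was the most abundant per length, at 220.0 ± 44.9 and 218 ± 20.04 CPM (log2 fold change -0.011).

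Among 18 genes of glycolysis, fructolysis and the glucose sensor ChREBP, 2 hexokinases with high affinity for glucose fell and none passed as higher. *Hk3*, a hexokinase of myeloid cells, was at 39.5, 17.2 and 37.9 CPM in controls, and at 9.93, 9.19 and 6.84 CPM in knockouts (adjusted p = 0.0288, log2 fold change -1.87 with a standard error of 0.325). *Hk2* was at 17.7, 18.5 and 10.5 CPM and at 6.16, 6.86 and 3.19 CPM (adjusted p = 0.0478, log2 fold change -1.52 with a standard error of 0.332). It was highest in control pools 1 and 2, where striated muscle markers summed to 68.1 and 559 CPM. Every macrophage marker had a fold change below 0 and 2 of 7 passed, while 1 of 4 resident Kupffer cell markers passed as higher. The part of macrophage, Kupffer cell and muscle RNA in these values was not tested. *Pdk1*, a kinase that inhibits pyruvate dehydrogenase, was at 50.3 ± 22.5 and 93.8 ± 22.8 CPM (adjusted p = 0.175), and *Khk*, fructokinase, at 233 ± 93.2 and 326 ± 136 CPM (adjusted p = 0.490).

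Of 9 other glucose transporters, *Slc2a8*, an intracellular carrier, rose from 18.9, 20.2 and 20.8 CPM to 32.1, 36.7 and 31.0 CPM (adjusted p = 0.0358, log2 fold change 0.74 with a standard error of 0.142). *Slc2a10* fell (adjusted p = 0.0488, log2 fold change -2.33 with a standard error of 0.515), from levels of 0.406 to 0.582 CPM that rest on few reads. *Slc2a4*, the insulin-regulated transporter of muscle and fat, reached 5.43 CPM in control pool 2 and at most 1.29 CPM elsewhere, and *Slc2a12* was at most 0.774 CPM in any pool.

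None of 20 further gluconeogenic enzymes and 14 regulators passed in edgeR. In that test 2 and 4 had an unadjusted p under 0.05, against 23.0% of all genes, while DESeq2 called 1 and 2. The enzyme list had a median of 0.10. *Got1*, the cytosolic aspartate aminotransferase, was at 223, 322 and 401 CPM in controls, and at 176, 809.8 and 1239 CPM in knockouts (adjusted p = 0.259). The regulators had a median of 0.24 and 12 of 14 were above 0, against 50.5% of all genes. *Mttp-IKO* pool 3 was the highest of the 6 pools for 11 of the 14 (78.6%, against 28.8% of all genes). *Ppargc1a*, the coactivator PGC-1α that drives *Pck1* and *G6pc*, was at 29.0, 40.6 and 38.1 CPM in controls, and at 45.5, 98.5 and 95.7 CPM in knockouts. Its pools did not overlap (adjusted p = 0.0724, log2 fold change 1.15 with a standard error of 0.298). *Foxo1*, the factor that insulin excludes from the nucleus, was at 61.1 ± 3.40 and 96.4 ± 40.4 CPM (adjusted p = 0.203), with *Mttp-IKO* pools at 65.4, 81.8 and 142 CPM. *Sik1*, a kinase induced by cAMP, was at 97.3 to 176 CPM in 5 pools and 763 CPM in *Mttp-IKO* pool 3, and *Cebpb* was likewise highest there, at 623 CPM.

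None of 23 insulin signaling genes passed in edgeR or in DESeq2, and their median was 0.09. In edgeR 3 of them had an unadjusted p under 0.05, against 23.0% of all genes. *Insr*, the insulin receptor, was at 192, 214 and 208 CPM in controls, and at 251, 274 and 373 CPM in knockouts, without overlap (adjusted p = 0.150, log2 fold change 0.55 with a standard error of 0.196). *Socs2* was at 30.8 ± 5.245 and 49.8 ± 27.6 CPM and *Socs1* at 1.47 ± 0.331 and 0.932 ± 0.0830 CPM, both suppressors of cytokine signaling (adjusted p = 0.315 and 0.262).

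The 15 targets of insulin and fasting had a median of 0.55, with *Ppp1r3b* alone past the threshold. *Igfbp1*, a hepatocyte gene that insulin represses, was at 631, 619 and 916 CPM in controls, and at 1648, 1193 and 3358 CPM in knockouts. All *Mttp-IKO* pools were higher, and the adjusted p was 0.0723 (log2 fold change 1.52, standard error 0.392). *Pnpla3*, an insulin- and SREBP-1c-responsive lipase gene, was at 1.21 ± 0.310 and 2.82 ± 0.733 CPM (adjusted p = 0.0809), and it passed without *Mttp-IKO* pool 3.

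**Figure D4:**
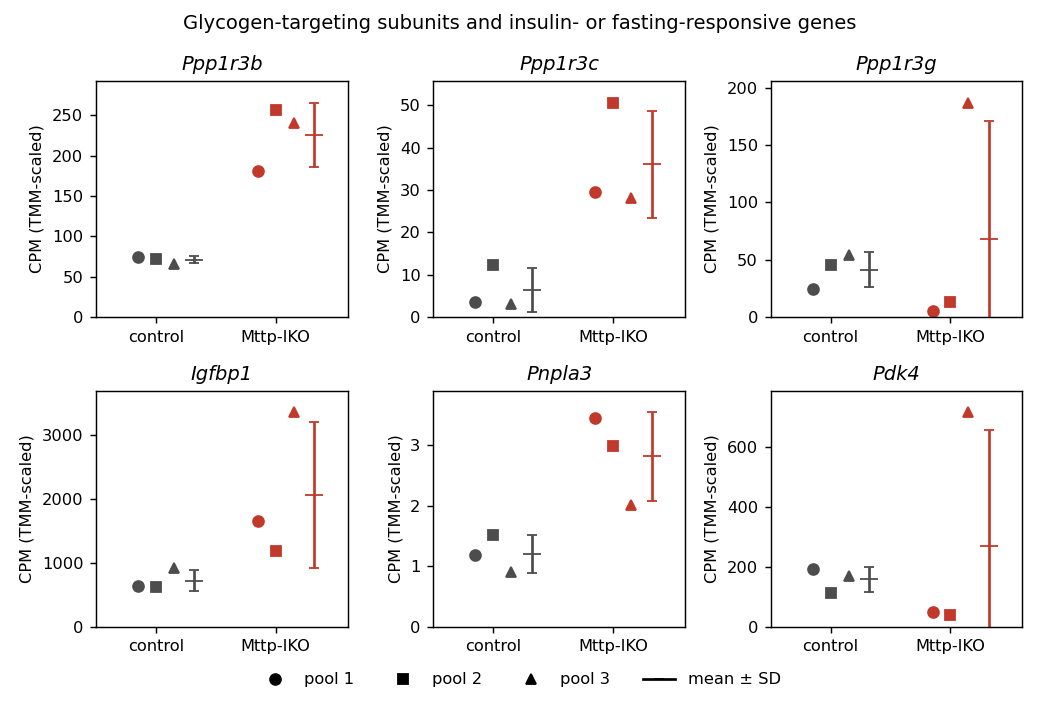
CPM (TMM-scaled, linear axes from 0) of 3 glycogen-targeting subunits and 3 insulin- or fasting-responsive genes in each pool, with mean ± SD (n = 3) where the lower SD bars of *Ppp1r3g* and *Pdk4* are cut at 0. *Ppp1r3b*, *Ppp1r3c*, *Igfbp1* and *Pnpla3* are higher in each *Mttp-IKO* pool, while *Ppp1r3g* and *Pdk4* are low in *Mttp-IKO* pools 1 and 2 and highest in pool 3.

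*Mttp-IKO* pool 3 was the highest of the 6 pools for 6 of the 9 genes (66.7%), against 28.8% of all genes tested. It exceeded both other *Mttp-IKO* pools by more than 1.5 times for *G6pc*, *Gys2* and *Irs2*, 3 of the 9, against 11.7% of all genes. The same held for 6 of 15 insulin and fasting targets and for 5 of 14 regulators. The 20 further gluconeogenic enzymes lay the other way, with this pool the lowest of the 6 for 11 (55%, against 29.4% of all genes) and more than 1.5 times below both other *Mttp-IKO* pools for 6 (30%, against 16.2%). Examples chosen after their values were seen are *Pdk4*, a fasting-induced kinase, at 49.2, 39.9 and 716.5 CPM in *Mttp-IKO* pools 1 to 3 and 193, 113 and 169 CPM in control pools. *Ppp1r3g*, a further glycogen-targeting subunit, was at 5.58, 12.9 and 187 CPM against 24.9, 45.2 and 54.3 CPM. Without *Mttp-IKO* pool 3, *Pdk4* and *Ppp1r3g* passed as lower in *Mttp-IKO* (log2 fold changes -1.82 and -2.16), while over all pools their adjusted p was 0.677 and 0.726. The low shares of small RNAs and short mRNAs moved with this pool, and their part in the pattern was not tested. Of the 9 genes, 6 were still above 0 and 3 below without it.

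**Figure D5:**
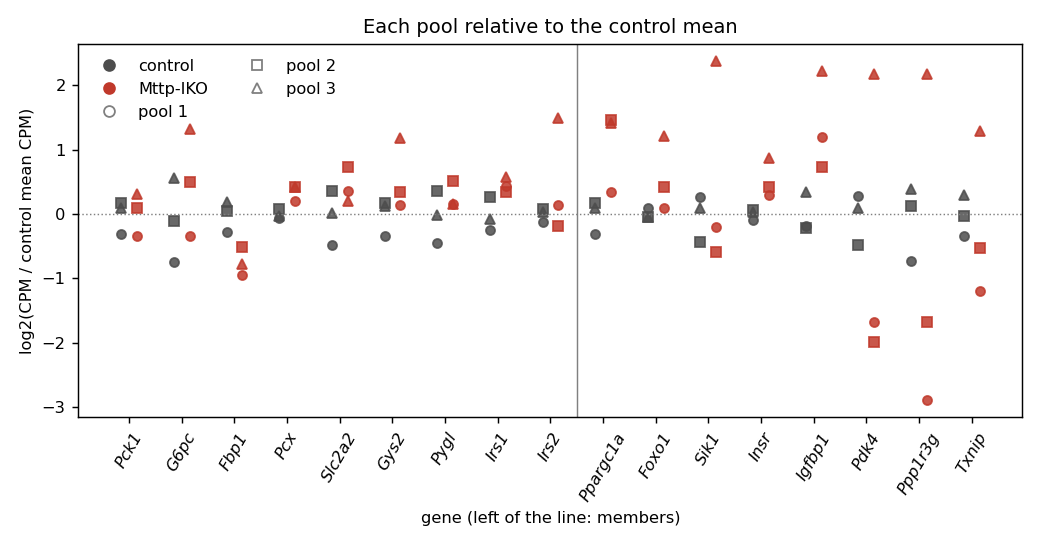
Log2 of each pool's CPM over the control mean, for the 9 genes left of the line and 8 regulators or targets right of it, in grey for control and red for *Mttp-IKO*, with symbols for pool numbers. *Mttp-IKO* pool 3 stands 1.48 above the control mean for *Irs2* and 2.18 for *Pdk4*, where *Mttp-IKO* pool 2 is at -0.19 and -1.99.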

How the data were processed

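Liver RNA pools (3 control, 3 *Mttp-IKO*) were assigned to groups and replicates from their labels. The authors depleted ribosomal RNA (KAPA RiboErase), aligned reads with STAR 2.5.1a to Ensembl release 76 (GRCm38) and deposited raw counts of uniquely aligned, unambiguous reads per gene from featureCounts 1.4.6-p5. Use of strand is not given in the sources used here. The authors also deposited CPM and RPKM, which follow from the counts in all 6 files, so the counts were tested. The table of all pools holds 40481 of 41388 genes, after 276 repeated lines were dropped.

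Counts were filtered by filterByExpr (minimum count 10, minimum total 15, leaving 17287 genes), scaled by TMM and compared by edgeR 4.0.16 (glmQLFit, glmQLFTest, R 4.3.3) with Benjamini-Hochberg adjustment and a threshold of 0.05. Intervals are 95% and use the fit's degrees of freedom, and CPM and RPKM printed here are TMM-scaled. Ratios were compared by exact permutation. The pools held 25271585 to 36238734 reads. Counts of any 2 pools of a genotype differed by more than sampling noise. The article names no test for differential expression.

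The 9 genes and all lists were chosen with earlier results of these data known. Lists were gluconeogenic enzymes, regulators, glycolysis and ChREBP, glycogen metabolism, glucose transporters, insulin signaling, insulin and fasting targets, and markers of hepatocytes, stellate cells, macrophages, resident Kupffer cells, endothelial cells, cholangiocytes, T cells, B cells, neutrophils, striated muscle, small intestine, kidney cortex, adipocytes and islets. Named were, from each pathway list, the 3 passing genes with the smallest p, the 2 others with the largest change and the most abundant per kilobase, and always *Igfbp1*, *Ppargc1a*, *Foxo1* and *Insr*. Some genes that this rule names are not reported here. For *Pck1* and *Irs2* the 3 genes of average log2 CPM of at least 1 with the highest Pearson correlation were taken. Alternatives were other scalings, DESeq2 1.42.0, limma-voom 3.58.1, other filters, protein-coding genes only, another threshold, a replicate block, removal of a loess trend on gene length (span 0.3), and leaving out each pool. Promoters came from RefSeq (GRCm38.p6). The test was checked on simulated counts. Plots were made in Python 3.11.15 with matplotlib 3.10.9.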

Additional observations from a re-analysis of the deposited data

How the results depend on the processing

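For the 9 genes, 138 of 144 alternative fold changes kept their direction and their side of the threshold. *Fbp1* passed in DESeq2 (-0.72, adjusted p = 0.0118) and with scaling by total counts (-0.92, adjusted p = 0.0339), so that 1 of the 9 genes passed under each, as it did at a threshold of 0.1, and its fold change was -0.88 to -0.64 when each pool was left out. Scaling by total counts moved the median of all genes to -0.17, and *Pck1* to -0.13 (adjusted p = 0.768), and relative to that median *Fbp1* was at -0.74. Leaving out each pool gave -0.11 to 0.21 for *Pck1*, -0.013 to 0.96 for *Irs2*, -0.43 to 0.29 for the ratio of *Irs2* to *Irs1*, -0.48 to 0.12 for that of *Pygl* to *Gys2*, 0 to 0 passing genes of the 9, 0 to 11 of the 115 in the lists and 0 to 892 of all genes. Counts of all genes were 1995 in DESeq2, 428 in limma-voom and 1658 at a threshold of 0.1, and DESeq2 called 14 list genes. The causes were not tested.

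Same-numbered pools deviated together with correlations of 0.191, 0.147 and 0.0238, so the numbers were not taken as pairs, although every pool correlated best with its own number. With the replicate block 592 genes passed, 0 of the 9 and 6 in the lists. Of the 6 list genes called without it, 4 were called with it, *Slc2a8* (adjusted p = 0.0635) and *Slc2a10* (0.0870) were not, *Igfbp1* and *Ppargc1a* were gained, and *Fbp1* was at -0.74 (adjusted p = 0.0974). With 3 pools per genotype, intervals of the fold changes of the 9 genes remained wide.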

Other observations

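Other genes around the 9, chosen after their values were seen, gave the following values. *Slc37a4*, which carries glucose-6-phosphate to the phosphatase encoded by *G6pc*, was at 94.3, 140.5 and 129.7 CPM in controls, and at 183, 256 and 164 CPM in knockouts, without overlap (adjusted p = 0.119, edgeR, log2 fold change 0.73 with a standard error of 0.233). *Pgm1*, phosphoglucomutase between glycogen and glucose-6-phosphate, was at 104 ± 8.17 and 147 ± 6.45 CPM (adjusted p = 0.0975), and *Hnf4a*, a hepatocyte transcription factor, at 617 ± 62.5 and 1129.8 ± 234 CPM (adjusted p = 0.0664; SD, n = 3 pools).

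Over the 6 pools and 12593 genes compared, the mRNAs whose log2 CPM was most like that of *Pck1* were *Arhgef37* (Pearson r = 0.989), *Npc1* (0.987) and *AA474408* (0.984). For *Irs2* they were *Pi4k2a* (0.998), *Elavl1* (0.998) and *Nckap1* (0.997). In all, 124 genes had r over 0.9 with *Pck1* and 653 with *Irs2*, whose level stood apart in *Mttp-IKO* pool 3 alone, so that its r values rest mainly on that pool. These are descriptions across 6 pools that share libraries.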
